A study of Mus musculus with 7 samples.

Results

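The genes described here are 28 of the 55536 genes in the deposited gene list. They cover the synthesis of cholesterol (*Acat2*, *Hmgcs1*, *Mvk*, *Pmvk*, *Mvd*, *Idi1*, *Fdps*, *Fdft1*, *Sqle*, *Lss*, *Cyp51*, *Tm7sf2*, *Msmo1*, *Nsdhl*, *Hsd17b7*, *Ebp*, *Sc5d*, *Dhcr7*), its regulation (*Insig1*, *Insig2*, *Srebf1*, *Srebf2*, *Scap*), a branch enzyme (*Ggps1*), and its transport, storage and export (*Stard4*, *Soat1*, *Abca1*, *Abcg1*). The list carried the name of uptake as well, but none of the 28 is a lipoprotein receptor, so the receptors *Lrp1*, *Lrp8* and *Vldlr* are given from a separate list. Members were matched on the gene symbol. They were chosen by their roles with earlier results of these same wells in view, and which contrast had been looked at was not recorded. Every count and p-value for the members is therefore a description of these wells and not independent support.

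Nuclei came from the hippocampi of Arctic48 mice (Arc) and of WT littermates on the C57BL6/J background. Arctic48 mice are hemizygous for a human APP transgene with the Indiana, Swedish and Arctic mutations. Mice of both genotypes drank water (veh) or water with PMX205, an antagonist of the complement receptor C5aR1, at 20 μg/ml, and tissue was taken at 10 months of age. The treatment lasted 12 weeks by the labels. The paper gives a span of ages that comes to slightly less. All 4 groups (Arc-veh, Arc-PMX and the WT groups WT-veh and WT-PMX) were housed singly. By the labels they were perfused with actinomycin D and triptolide, inhibitors of transcription, whereas the study's methods name inhibitors only for the isolation of microglia. Each group had 6 wells of the first barcoding round, 3 from females, named F1 to F3, and 3 from males, named M1 to M3, and each well held the nuclei of 1 mouse. The study excluded 1 WT sample that it found by expression to be transgenic, without naming the well, and all 24 wells were kept here.

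Cells make cholesterol from acetyl-CoA through the mevalonate pathway to squalene, close the ring to give lanosterol, and then trim lanosterol in several further steps. The transcription factor SREBP2 (*Srebf2*), escorted by SCAP and held back in the membrane by the INSIG proteins, turns on the genes of this pathway when sterols are low, whereas sterol ligands of the LXR receptors raise the exporters *Abca1* and *Abcg1* and also *Srebf1*. In the adult brain cholesterol is made locally, mainly by glia, and astrocytes pass it to neurons on lipoproteins.

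The 24 wells held 1150 to 3112 nuclei and 4389302 to 30001858 transcripts after filtering. Of 43886 nuclei, 25400 were in neuronal clusters, among them 8527 dentate granule, 4788 CA1, 2512 CA3 and 4312 interneuron nuclei, and 5435 were astrocyte-like. Each type was named from fixed markers, and *Prox1*, *Fibcd1*, *Grik4* and *Gad1* with *Gad2* marked the 4 neuronal types, although *Grik4* was detected in most dentate nuclei too. *Xist* separated all 12 female wells (410 to 1087 CPM, counts scaled to the total of the well) from all 12 male wells (1.51 to 7.20 CPM). *App* in neurons, the gene the transgene carries in human form, lay at 444 to 575 CPM in WT wells and 545 to 796 CPM in Arc wells, so that the ranges met only at their edges. In oligodendrocyte nuclei *App* lay at 904 to 1863 CPM in WT wells and 1977 to 4191 CPM in Arc wells, without overlap. Its ranges in interneurons overlapped. CA3 nuclei were deeper in Arc wells: the well medians ran from 6594 to 29936 transcripts per nucleus with a middle value of 20539, against 6874 to 31086.5 with a middle value of 14637 in WT wells. The middle values were higher in Arc in each other type too, for example 11740 against 7146 in all neurons, 8496 against 5203 in dentate granule, 14864 against 10409 in CA1 and 2517 against 1525 in astrocyte nuclei, and the part of this difference in results outside CA3 was not tested.

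On water, WT mice had the highest levels of most members in astrocytes. CPM are transcripts of a gene scaled to all transcripts of that type in a well, so they are compared between types and not between genes. Of the 28 members, 18 were highest in astrocytes, 4 in oligodendrocytes (*Acat2*, *Srebf1*, *Scap*, *Abcg1*), 3 in OPCs (*Tm7sf2*, *Ebp*, *Ggps1*) and 3 in microglia (*Lss*, *Insig2*, *Abca1*). Some of these ranks rest on few transcripts: 3 each for *Lss* in microglia and *Tm7sf2* in OPCs, 2 for *Ebp* in OPCs, 6 for *Insig2* in microglia and 16 for *Acat2* in oligodendrocytes, where WT-veh M3 alone stood at 96.9 CPM against a mean of 26.2. A high level is not a large share of the transcripts, since neurons were many and deep: *Hmgcs1* had 106 transcripts in the astrocytes and 723 in the neurons of these wells. *Msmo1*, the sterol methyl oxidase, stood at 107 ± 20.0 CPM (SD, n = 6 wells) in astrocytes and 36.8 ± 27.8 CPM in oligodendrocytes. In neurons it stood at 14.5 ± 4.84 CPM in CA3, 10.3 ± 1.71 CPM in CA1, 8.53 ± 3.66 CPM in interneurons and 4.70 ± 0.656 CPM in the dentate gyrus. Only the astrocyte level lay apart from its neighbour in this order by more than the SDs.

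Among the 4 neuronal types CA3 was highest for 12 members, interneurons for 10, the dentate gyrus for 5 and CA1 for 1. The dentate gyrus was lowest for 18. *Sqle*, squalene epoxidase, was at 9.01 ± 1.28 CPM in CA3, 5.87 ± 1.47 CPM in CA1, 5.14 ± 1.92 CPM in interneurons and 2.13 ± 1.91 CPM in dentate granule nuclei, where CA3 lay apart from CA1 by more than the SDs and the other neighbours did not. The 2 exporters went separate ways. *Abca1*, which loads cholesterol onto apolipoproteins, reached 564 ± 214 CPM in microglia (n = 4 wells), 247 ± 43.8 CPM in astrocytes and 206 ± 35.0 CPM in OPCs but 6.56 ± 1.51 CPM in dentate granule nuclei. *Abcg1*, which passes cholesterol to formed lipoproteins, was at 237 ± 66.5 CPM in oligodendrocytes and 52.5 ± 4.83 CPM in dentate granule nuclei, and at 2.94 ± 2.78 CPM in astrocytes. These levels are a description with no test, since the types are clusters of the same nuclei. The members were left out of the genes used for clustering.

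**Figure D1:**
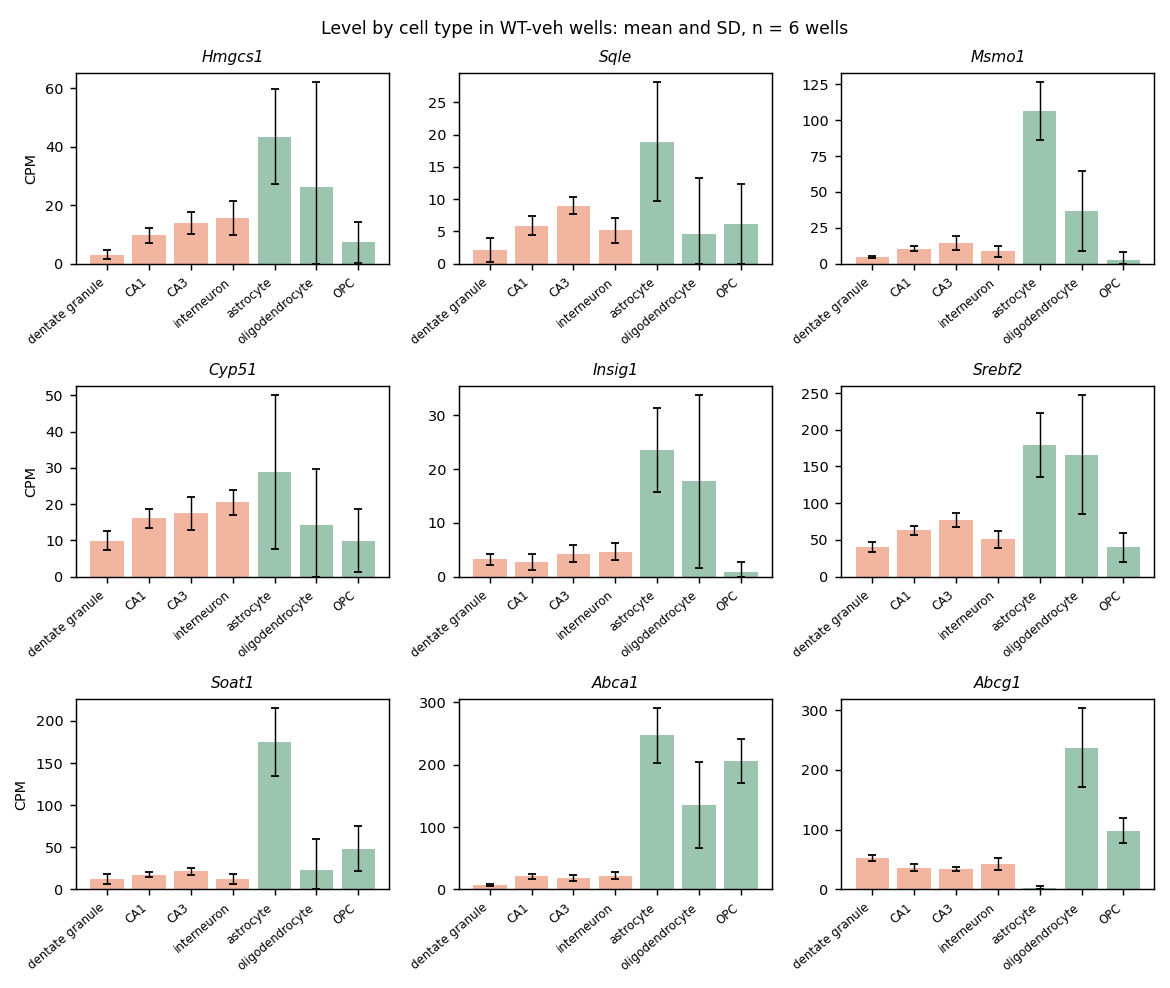
Level of 9 members by cell type in WT-veh wells. Microglia are not drawn, and Abca1 was highest there, at 564 CPM. Bars give the mean CPM over wells from an axis that starts at 0 and lines give the SD, cut at 0. Msmo1, Hmgcs1 and Soat1 stood highest in astrocytes (107 CPM for Msmo1), whereas Abcg1 stood at 237 CPM in oligodendrocytes and 2.94 CPM in astrocytes.

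In all neurons pooled, some genes of cholesterol synthesis were higher in Arc than in WT mice. Averaged over both treatments, 8 of the 28 members had higher levels by edgeR's quasi-likelihood test (adjusted p under 0.05 over 15045 genes, of which 0.199% were called) and none was lower. They were *Acat2*, *Hmgcs1*, *Fdft1*, *Sqle*, *Tm7sf2*, *Msmo1*, *Nsdhl* and *Insig1*, with log2 differences of 0.48 to 0.73. The median log2 difference was 0.36 over the 28 members and 0.00 over all genes. *Msmo1* ran from 8.10 to 13.7 CPM in the 12 WT wells and from 14.2 to 21.3 CPM in the 12 Arc wells, without overlap. The share of all genes without overlap was counted in CA3 and not in all neurons. With CA3 nuclei left out, an alternative chosen after the data were seen, the same 8 members were still on the higher side, with a median of 0.47 in place of 0.64, but 1 was called (0.0688% of all genes).

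Among the 4 neuronal types most members were called in CA3 pyramidal neurons. In them 13 of the 25 members that passed the filter on low counts were called higher in Arc, by 0.69 to 1.30 on the log2 scale, and none lower. Of all 9714 genes tested in CA3, 0.443% were called, and the 13 members were 13 of the 35 genes called higher. The median log2 difference was 0.71 over the 25 members and 0.00 over all genes. *Idi1*, *Ebp* and *Stard4* did not pass the filter. The CA3 set joined a larger cluster of 355 to 548 nuclei per group and a smaller one of 173 to 245. The leading genes of the smaller cluster held no CA3 marker.

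Of the 7 enzymes from *Acat2* to *Fdps*, 4 rose in CA3. *Hmgcs1*, the HMG-CoA synthase, lay at 9.67, 14.2 and 18.0 CPM (lowest, median and highest of 6 wells) in WT-veh and 10.8, 18.5 and 24.0 CPM in WT-PMX. In Arc-veh it lay at 27.7, 31.3 and 36.3 CPM and in Arc-PMX at 26.3, 35.5 and 54.0 CPM. Each Arc well was above each WT well, a log2 difference of 1.09 ± 0.14 (SE, adjusted p = 1.3e-05, edgeR). *Acat2*, the cytosolic thiolase that joins acetyl-CoA units, ran from 4.63 to 11.2 CPM in WT and from 9.86 to 26.6 CPM in Arc, and 11 of 12 Arc wells exceeded the highest WT well. Its log2 difference was 1.24 ± 0.16 (adjusted p = 2.1e-05). *Mvd*, which decarboxylates mevalonate diphosphate, had the largest log2 difference at 1.30 ± 0.23, from medians of 3.73 CPM in WT and 11.5 CPM in Arc. *Fdps*, the farnesyl diphosphate synthase, rose by 1.16 ± 0.23 from a median of 4.48 to 11.1 CPM. Not every step passed the test: *Mvk*, mevalonate kinase, differed by 0.86 (95% interval 0.40 to 1.31, adjusted p = 0.1) and *Pmvk*, the next kinase, by 0.53 (0.08 to 0.98, adjusted p = 0.61). The isomerase *Idi1* was not tested, with 0.395 to 3.31 CPM in WT wells and 0 to 7.97 CPM in Arc wells.

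The 3 enzymes that make and cyclize squalene rose in CA3 as well. *Fdft1*, squalene synthase, ran from 12.6 to 50.9 CPM in WT wells (median 26.5) and from 40.4 to 76.9 CPM in Arc wells (median 60.7), with 10 of 12 Arc wells above the highest WT well. *Sqle* had 7.27, 9.56 and 10.3 CPM in WT-veh, 7.51, 10.8 and 13.7 CPM in WT-PMX, 13.8, 19.9 and 25.9 CPM in Arc-veh and 16.6, 22.3 and 27.2 CPM in Arc-PMX. Its WT and Arc wells did not overlap, although the lowest Arc-veh well and the highest WT-PMX well nearly touched. *Sqle* rose by 1.16 ± 0.12 (2.23-fold, adjusted p = 5.4e-07), from 118 and 115 transcripts in the 2 WT groups to 240 and 234 in the 2 Arc groups. *Fdft1* rose by 1.18 ± 0.14 (adjusted p = 3.3e-06) and *Lss*, lanosterol synthase, by 0.92 ± 0.14 (adjusted p = 0.00014).

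Of the 8 enzymes that convert lanosterol to cholesterol, 5 rose in CA3. *Msmo1* had 6.45, 15.4 and 19.1 CPM in WT-veh, 10.8, 15.5 and 23.1 CPM in WT-PMX, 28.4, 35.2 and 47.0 CPM in Arc-veh and 26.3, 38.2 and 39.6 CPM in Arc-PMX. Again no Arc well fell into the WT range, and the log2 difference was 1.26 ± 0.14 (2.39-fold, adjusted p = 8.4e-07). *Nsdhl*, the sterol dehydrogenase that acts with MSMO1 on the methyl groups, rose by 1.23 ± 0.17, and 11 of 12 Arc wells exceeded every WT well. The demethylase *Cyp51* rose by 0.71 ± 0.14, the reductase *Tm7sf2* by 0.99 ± 0.21 (adjusted p = 0.022) and the desaturase *Sc5d* by 0.69 ± 0.13. *Hsd17b7* differed by 0.71 (0.34 to 1.08, adjusted p = 0.097) and *Dhcr7*, the last reductase, by 0.53 (0.24 to 0.82, adjusted p = 0.13), both short of the threshold. *Ebp* was at most 3.32 CPM in any well and was not tested.

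*Sqle*, *Msmo1* and *Hmgcs1* were the 3 of the 25 tested members whose Arc wells all lay above all WT wells in CPM, and 6 of the 9714 genes (0.0618%) did so.

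**Figure D2:**
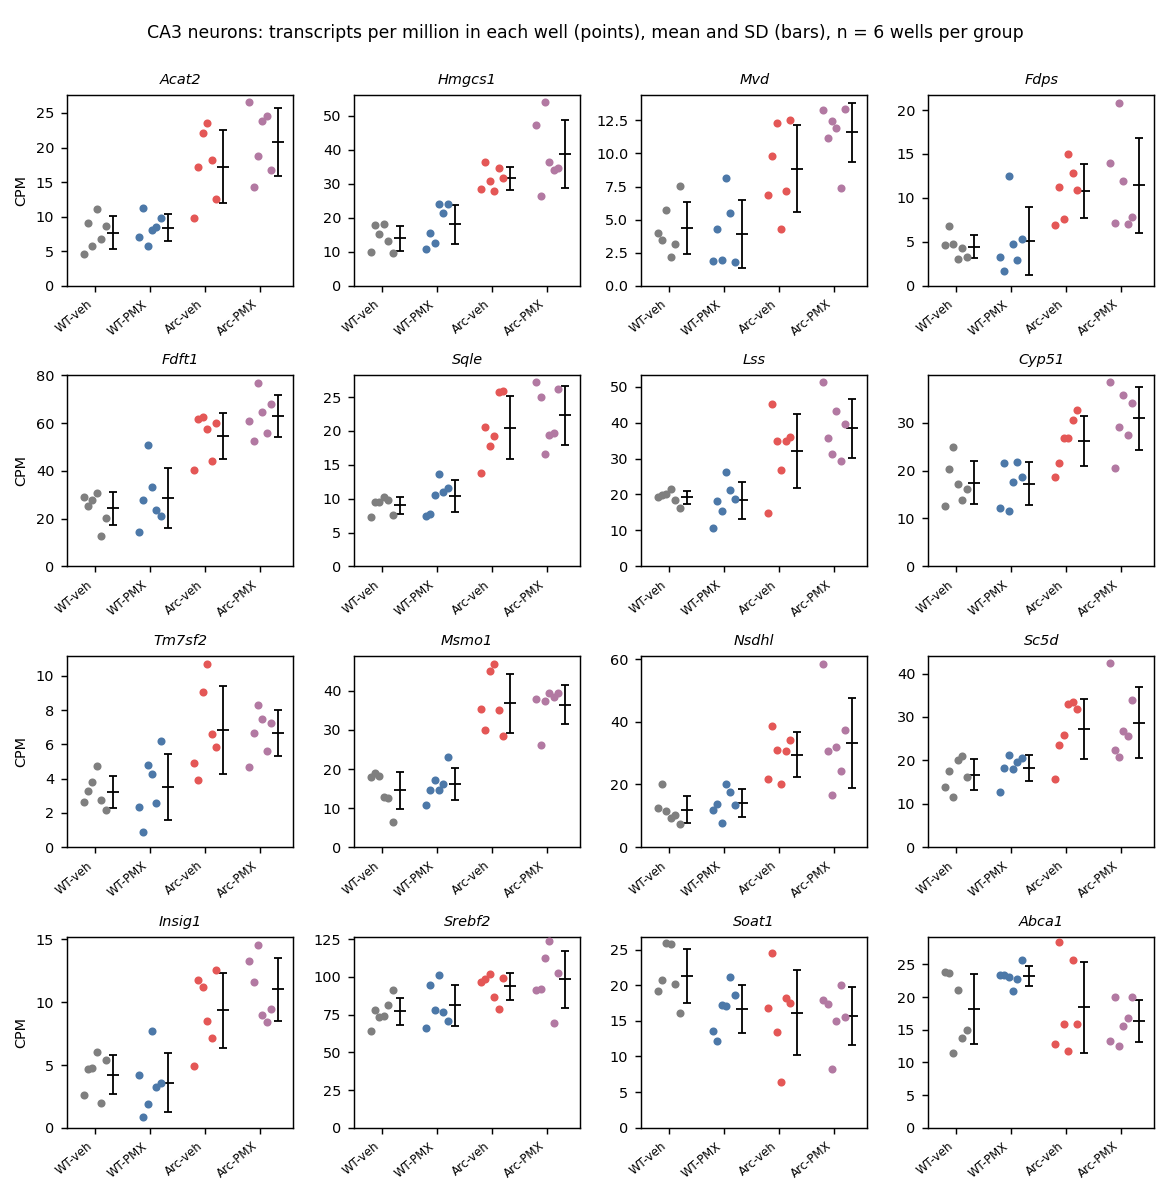
CPM of 16 members in CA3 nuclei, 1 point per well, with the mean and SD of 6 wells per group: the 13 members called higher in Arc, and Srebf2, Soat1 and Abca1. For Sqle all Arc wells (13.8 to 27.2 CPM) sit above all WT wells (7.27 to 13.7 CPM), whereas for Soat1 and Abca1 the groups overlap.

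In mm10 *Sqle* (ENSMUSG00000022351.14) lies at chr15:59315077-59331192 on the plus strand, *Msmo1* (ENSMUSG00000031604.10) at chr8:64718139-64733792 on the minus strand and *Hmgcs1* (ENSMUSG00000093930.2) at chr13:119690379-119708260 on the plus strand, each as a whole gene in GENCODE vM21. Of the 28 members, 23 had an entry in a table of RefSeq promoters on GRCm38.p6, and of the 13 called in CA3 10 had one. Windows of 250 bases before the start site were searched on both strands for 3 motifs. They were the sterol regulatory element (TCAC, any base, CCAC), which SREBP proteins bind, the CCAAT box CCAAT, bound by NF-Y, and the GC box GGGCGG, bound by SP1. Of all 32851 windows, 1.05% held the first, 33.8% the second and 32.7% the third, against 3.23%, 67.7% and 74.2% of the 31 windows of members, some of which had several. Of the 10 called in CA3, 1 held the first, 9 the second and 10 the third. Of all 23 members with an entry, 1 held the first, 20 the second and 20 the third. The last 2 motifs were thus common in members not called there too. *Hmgcs1* held the sterol regulatory element at −137 (its first base, counted back from the start site), with CCAAT boxes at −237, −176 and −45. A match is a description of the letters and not a site, and windows without one lack only these letters. Windows are printed on the strand of the gene for *Hmgcs1* (chr13:119690101-119690350, plus strand) and *Acat2* (chr17:12960726-12960975, minus strand), as CA3-called members with and without the first 2 motifs, and for the exporter *Abca1* (chr4:53159896-53160145, minus strand), which was not called there. Capitals mark the matches, which read ATTGG and CCGCCC where they lie on the other strand, and no 2 of them overlap.
Hmgcs1: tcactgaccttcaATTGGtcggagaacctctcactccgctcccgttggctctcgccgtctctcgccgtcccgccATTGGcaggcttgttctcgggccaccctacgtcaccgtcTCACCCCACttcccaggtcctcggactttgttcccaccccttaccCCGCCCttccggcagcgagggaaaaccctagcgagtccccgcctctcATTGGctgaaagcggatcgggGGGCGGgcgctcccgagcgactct
Acat2: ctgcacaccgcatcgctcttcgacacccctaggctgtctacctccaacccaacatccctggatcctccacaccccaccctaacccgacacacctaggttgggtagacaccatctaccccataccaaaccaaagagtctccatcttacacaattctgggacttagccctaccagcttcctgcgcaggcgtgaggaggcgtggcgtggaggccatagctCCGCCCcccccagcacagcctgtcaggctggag
Abca1: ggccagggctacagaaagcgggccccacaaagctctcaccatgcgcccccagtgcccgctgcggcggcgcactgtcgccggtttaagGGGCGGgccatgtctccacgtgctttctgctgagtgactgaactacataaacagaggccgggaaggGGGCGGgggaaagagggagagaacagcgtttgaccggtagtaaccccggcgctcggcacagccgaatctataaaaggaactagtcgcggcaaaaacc

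The regulators split. *Insig1*, itself a target of SREBP2 and its retention factor, rose in CA3 by 1.29 ± 0.22 (adjusted p = 0.0011), from a median of 3.89 CPM in WT to 10.4 CPM in Arc. *Insig2* differed by 0.11 (−0.15 to 0.36), *Srebf2* by 0.27 (0.10 to 0.45, adjusted p = 0.25), *Scap* by 0.22 (−0.01 to 0.44) and *Srebf1* by 0.32 (−0.24 to 0.87), none of them called.

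None of the 4 tested genes that export or store cholesterol or draw on its precursors was called in CA3, and the upper bound of each interval was at most 0.11. *Abca1* ran from 11.5 to 25.8 CPM in WT wells and from 11.7 to 28.4 CPM in Arc wells, a log2 difference of −0.19 (−0.47 to 0.09). The values were −0.20 (−0.41 to 0.02) for *Abcg1*, −0.18 (−0.47 to 0.11) for *Soat1*, which esterifies cholesterol for storage, and −0.25 (−0.52 to 0.03) for *Ggps1*, which diverts farnesyl diphosphate to protein prenylation. *Stard4*, a sterol carrier, was not tested, and its wells ran from 0.469 to 5.85 CPM in WT and from 2.96 to 8.31 CPM in Arc.

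The same direction was found on water and on PMX205, in pairs of groups that share no well. Both contrasts came from a joint fit of all groups, and the members were chosen with earlier results of these wells in view. The agreement is therefore not a replication. Between Arc-veh and WT-veh, 6 members were called higher in CA3 (*Acat2*, *Hmgcs1*, *Fdft1*, *Sqle*, *Msmo1*, *Nsdhl*) with 0.175% of all genes called, and the median over 25 members was 0.76. Between Arc-PMX and WT-PMX the same 6 and *Lss* were called, with 0.124% of all genes called and a median of 0.84. *Msmo1* differed by 1.29 ± 0.19 on water and 1.23 ± 0.20 on PMX205, and *Sqle* by 1.16 ± 0.17 and 1.15 ± 0.17. In all neurons 3 members were called on water (*Msmo1*, *Hmgcs1*, *Acat2*, with 0.0399% of all genes) and 1 on PMX205 (*Msmo1*, with 0.0133%). No call in all neurons was left on either treatment without WT-veh F3 and M3. On water 1 was left without any of 8 wells (Arc-veh F2, F3, M1 or M2, or WT-veh F3, M1, M2 or M3), and the one on PMX205 was also lost when any of 10 of the 12 wells compared was left out.

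Depth and cluster make-up were looked at in alternatives chosen after the data were seen. Restricted to CA3 nuclei of 10000 to 25000 transcripts, which left 4 of 6 Arc-PMX wells, the 12 of the 13 members still tested were all on the higher side (median 1.06) and 8 were called, with 0.3% of all genes called. Between Arc-PMX and WT-PMX none was called there (0.0116% of all genes), although all 12 were on the higher side with a median of 1.01 and 11 had an unadjusted p under 0.05. In the larger of both CA3 clusters 12 of the members were tested and all 12 called, with 0.431% of all genes. In the smaller one, whose leading genes held no CA3 marker, 7 were tested, all on the higher side (median 0.82), and 2 called, with 0.126% of all genes. Summed markers of other types in CA3 overlapped between genotypes: astrocyte markers lay at 354 to 576 CPM in WT and 323 to 476 CPM in Arc with all 7 detected, oligodendrocyte markers at 181 to 313 and 178 to 309 CPM with all 7 detected, and microglial markers at 10.8 to 41.3 and 16.7 to 79.0 CPM with 7 and 8 of 8 detected (*C1qa* at 0 in WT).

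Fewer members were called in the other neurons. In CA1, *Msmo1* alone of 23 tested members was called (0.73 ± 0.14, adjusted p = 0.015, edgeR), with 0.107% of all genes called and a median of 0.30 over the members. That call was lost without Arc-veh F3, Arc-veh M2 or WT-veh M2. DESeq2 called more members in CA1 than edgeR did, as given with the dependence on processing. *Sqle* ran from 3.74 to 9.11 CPM in WT and from 7.41 to 12.8 CPM in Arc, where all 12 wells exceeded the WT median. For *Insig2* 1 of 12 did. In dentate granule nuclei no member of 22 was called by edgeR, with 7 at an unadjusted p under 0.05 and 1 called by DESeq2, while 1.62% of all genes were called. There *Sqle* differed by 0.83 (0.25 to 1.40), *Msmo1* by 0.62 (0.25 to 0.99) and *Srebf2* by 0.36 (0.16 to 0.56, adjusted p = 0.052). In interneurons none of 20 was called by edgeR or DESeq2 and none had an unadjusted p under 0.05, with 0.0102% of all genes called, and *Msmo1* differed by 0.11 (−0.29 to 0.52) and *Sqle* by 0.24 (−0.30 to 0.77).

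Split by treatment, no member was called by edgeR or DESeq2 in these 3 types. On water 0.319% of all genes were called in dentate granule nuclei, 0.0391% in CA1 and 0% in interneurons, and 5, 10 and 1 members had an unadjusted p under 0.05. On PMX205 the shares were 0.281%, 0.0293% and 0%, and 4, 4 and 0 members had an unadjusted p under 0.05. Here and elsewhere the shares are of adjusted calls, so they are no like background for counts at an unadjusted p.

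**Figure D3:**
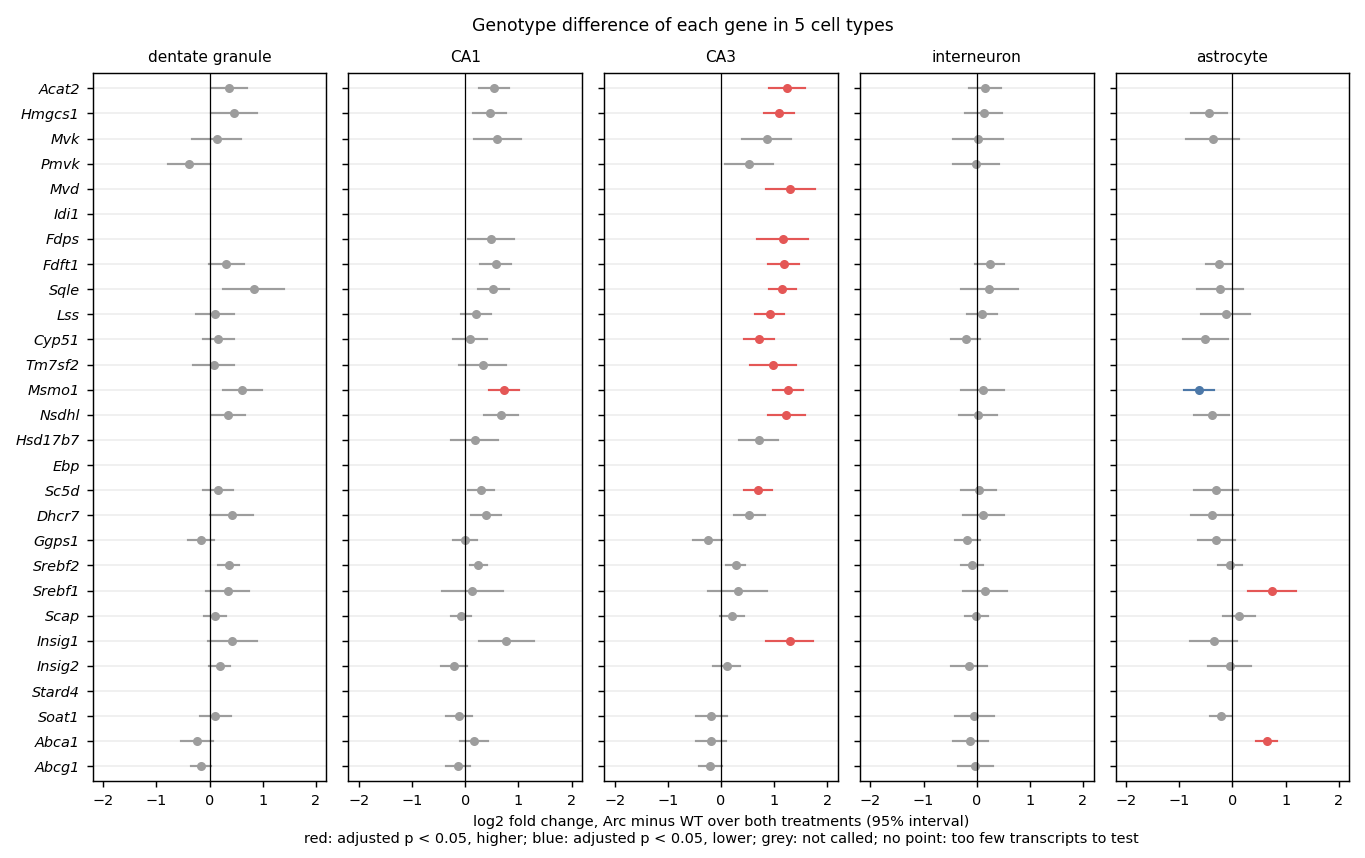
Log2 difference Arc minus WT over both treatments for the members in dentate granule, CA1, CA3, interneuron and astrocyte nuclei, with 95% intervals and a line at 0. Most synthesis genes lie farthest right in CA3 (Msmo1 at 1.26), near 0 in interneurons (0.11) and left of 0 in astrocytes (−0.62).

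Whether the genotype difference of CA3 was larger than that of another type of the same wells was tested in 1 fit with the well as a block, a test added after the values above were known. Against interneurons 5 of 24 members differed more in CA3 (*Acat2*, *Fdft1*, *Cyp51*, *Msmo1*, *Nsdhl*), with 0.119% of all genes called. For *Msmo1* the excess was 1.14 (0.68 to 1.61) and for *Fdft1* 0.99 (0.70 to 1.28). Against dentate granule nuclei 5 of 25 did (*Acat2*, *Fdft1*, *Lss*, *Nsdhl*, *Sc5d*), with 1.04% of all genes called. Against CA1 2 of 25 did (*Fdft1* by 0.59 and *Lss* by 0.70), with 0.0781% called. The median excess over the members was 0.71, 0.55 and 0.45 in that order.

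No member was called between PMX205 and water in neurons by this test. In CA3, Arc-PMX and Arc-veh wells overlapped for each of the 13 members, the median log2 difference was 0.12 over 25 members, and the differences were −0.01 for *Msmo1* (−0.38 to 0.36), 0.14 for *Sqle* (−0.19 to 0.46) and 0.21 for *Hmgcs1* (−0.16 to 0.59). Between Arc-PMX and Arc-veh 0% of all genes were called in all neurons, dentate granule nuclei, CA1, CA3 and interneurons, and 1, 0, 0, 0 and 1 members had an unadjusted p under 0.05. Between WT-PMX and WT-veh the share was 0% in the same 5 sets, with 1, 1, 0, 1 and 1 members under 0.05. The difference between both PMX205 effects was called for 0% of genes in each, with 0, 1, 1, 0 and 1 members under 0.05, and DESeq2 called no member either. The smallest p-values in all neurons belonged to *Soat1* (−0.23, −0.44 to −0.02), *Dhcr7* (−0.27, −0.60 to 0.06) and *Tm7sf2* (−0.18, −0.47 to 0.11) between Arc groups. Between WT groups they belonged to *Insig1* (0.43, 0.03 to 0.83), *Srebf1* (0.46, −0.03 to 0.94) and *Hmgcs1* (0.22, −0.03 to 0.48). The intervals in CA3 leave room for changes of about the width given and do not show that PMX205 was without effect.

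**Figure D4:**
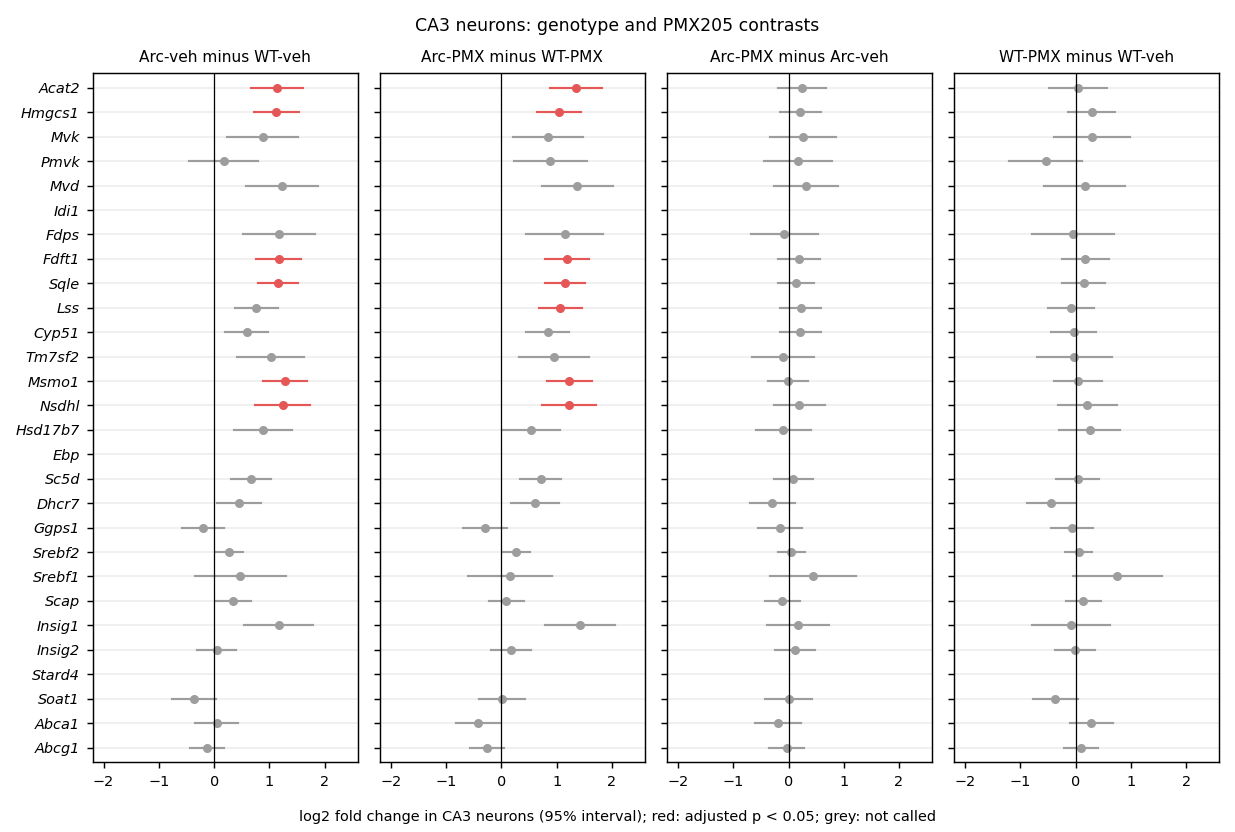
Log2 differences of the tested members in CA3 nuclei for the 4 pairwise contrasts, with 95% intervals. Both Arc minus WT contrasts lie right of 0 for the synthesis genes (Sqle at 1.16 on water and 1.15 on PMX205), and both PMX205 contrasts scatter about 0 (medians 0.12 in Arc and 0.05 in WT).

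In astrocytes, where most members had their highest level, an exporter was higher and a synthesis gene lower in Arc. Averaged over treatments, *Abca1* and *Srebf1* were higher and *Msmo1* was lower in Arc among 18 tested members, with 19.7% of all genes called. As a share the count was near that of all genes, but it was not stable: it was 5 of 18 without Arc-PMX M1 (19.3% of all genes) and 7 of 21 without WT-veh F3 and M3 (18.5%). *Abca1* had 198, 243 and 317 CPM in WT-veh, 229, 277 and 454 CPM in WT-PMX, 354, 446 and 500 CPM in Arc-veh and 305, 439 and 535 CPM in Arc-PMX. On water its groups did not overlap, and on PMX205 they did through WT-PMX M1 alone (454 CPM, next WT-PMX well 290 CPM). The share of all genes without overlap was not counted in astrocytes. It rose by 0.64 ± 0.10 (adjusted p = 2.6e-06, edgeR). *Srebf1* rose by 0.74 ± 0.22 (adjusted p = 0.014), from 18.2 to 126 CPM in WT wells to 47.2 to 161 CPM in Arc wells.

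*Msmo1* fell in astrocytes by 0.62 on the log2 scale (SE 0.14, adjusted p = 0.00073). Its wells ran from 81.7 to 200.3 CPM in WT and from 55.8 to 126 CPM in Arc, with overlap. Of the 18 tested members 15 had a negative difference, with a median of −0.28 against −0.01 over all genes, and *Hmgcs1* (−0.44, −0.79 to −0.10) and *Cyp51* (−0.51, −0.93 to −0.08) did not pass the test (adjusted p = 0.063 and 0.085). These values join both treatments, and *Msmo1* was called lower on PMX205 but not on water. The members leaned higher with PMX205 in WT mice but not in Arc mice, as given below, so the lean need not be the same on water. On water *Abca1* and *Srebf1* were called (12.4% of all genes called), and the call of *Srebf1* was lost without Arc-veh F2, F3 or M3, without WT-veh F1, M2 or M3, without WT-veh F3 and M3 together, and with DESeq2. On PMX205 *Abca1* was called higher and *Msmo1* lower (11.3%), again 2 of 18, but 4 of 18 without Arc-PMX M1 (10.4% of all genes) and 3 without Arc-PMX M3 or WT-PMX M1. Against the astrocytes of the same wells, the genotype difference was larger in CA3 for 15 of 24 members and smaller for *Abca1* (by −0.83, −1.10 to −0.55), with 11.8% of all genes called. For *Msmo1* the excess of CA3 was 1.87 (1.52 to 2.21).

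Markers of some neuronal types also moved with genotype in astrocyte nuclei. The 7 CA1 markers summed to 105 to 172 CPM in WT and 236 to 381 CPM in Arc, and the 7 dentate markers to 2670 to 3306 and 3502 to 4677 CPM, in both cases without overlap, with all 7 detected in WT and 7 and 6 in Arc (*C1ql2* at 0). The 7 CA3 markers overlapped (175 to 368 CPM in WT, 244 to 410 CPM in Arc). The interneuron markers overlapped too but went the other way, with medians of 888 CPM in WT and 700 CPM in Arc. In all neurons pooled the dentate markers summed to less than in astrocytes, 1135 to 2043 CPM in WT. The part of the marker transcripts in the astrocyte values was not tested.

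PMX205 called no member in astrocytes. In WT mice all 18 tested members were on the higher side (median 0.39, 0.01 over all genes), with 3 at an unadjusted p under 0.05 (*Insig1*, *Insig2*, *Scap*) and 0% of all genes called. In Arc mice 8 of 18 were on the higher side (median −0.02), none had an unadjusted p under 0.05 and 0.0137% of genes were called. The difference between both effects was called for 0% of genes, with 2 members (*Mvk*, *Scap*) under an unadjusted p of 0.05. DESeq2 called no member in these 3 contrasts.

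**Figure D5:**
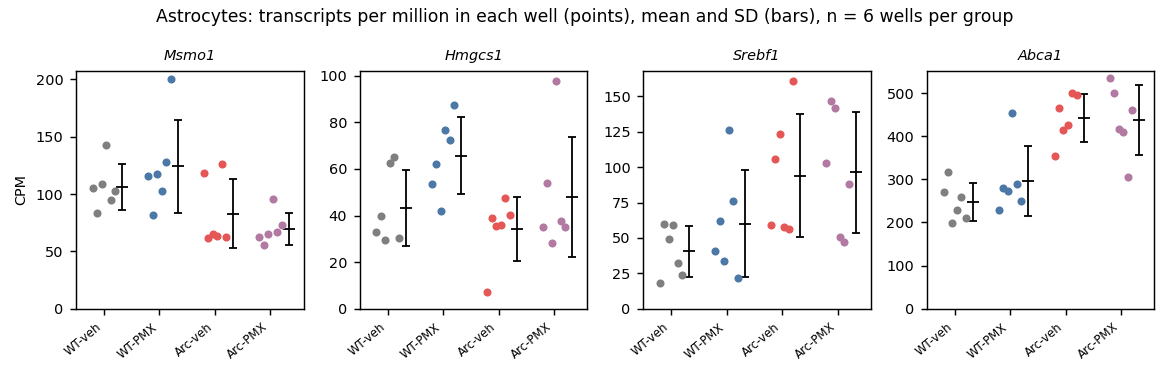
CPM of Msmo1, Hmgcs1, Srebf1 and Abca1 in astrocyte nuclei, 1 point per well, with the mean and SD of 6 wells per group. Abca1 lies at 198 to 317 CPM in WT-veh and 354 to 500 CPM in Arc-veh, while Msmo1 lies lower in Arc, with overlap.

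The other glia called no member. Averaged over treatments no member was called in oligodendrocytes (8 tested, 2 at an unadjusted p under 0.05, 5.24% of all genes called), OPCs (3 tested, 0 under 0.05, 3.17% called) or microglia (3 tested, 1 under 0.05, 20.5% called), by edgeR or DESeq2. In microglia *Soat1* differed by 0.76 (0.11 to 1.42, adjusted p = 0.097). WT microglial nuclei were few, 262 in all, against 1243 in Arc. Most members did not pass the filter on low counts in OPCs or microglia.

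Neighbouring pathways were read from 2 further lists, which were also written with earlier results known. Of 10 genes of the fatty acid arm of SREBP, 9 were tested in CA3 and 3 were called higher in Arc, with 0.443% of all genes called. *Fads2*, a fatty acid desaturase, rose by 1.47 ± 0.15 (adjusted p = 5.4e-07, edgeR), from 6.71 to 19.5 CPM in WT wells to 17.1 to 51.1 CPM in Arc wells. *Acaca*, acetyl-CoA carboxylase, rose by 0.44 ± 0.06, with all Arc wells (235 to 297 CPM) above all WT wells (171 to 231 CPM). *Acly*, ATP citrate lyase, rose by 0.56 ± 0.12, and *Fasn*, the fatty acid synthase, differed by 0.77 (0.32 to 1.22, adjusted p = 0.18). In all neurons *Fads2* alone of 10 was called, with 0.199% of all genes called, and in astrocytes 2 of 9 were, *Me1* higher and *Acss2* lower, near the 19.7% of all genes called there. Of 14 genes for sterol sensing, turnover and traffic, 12 were tested in CA3 and none was called by edgeR or had an unadjusted p under 0.05, the median being 0.04. The receptors differed by 0.03 for *Lrp1* (−0.25 to 0.30), 0.03 for *Lrp8* (−0.13 to 0.20) and 0.13 for *Vldlr* (−0.10 to 0.36). *Cyp46a1*, which clears cholesterol from neurons, differed by 0.17 (−0.18 to 0.51).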

How the data were processed

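Split-pool barcoded nuclei were counted by the authors with the Parse pipeline on mm10, and the deposited values are transcript counts per barcode and gene, without normalization or a filter on cells, in 7 sublibraries that share 48 first-round wells. The 24 single-nucleus wells were used, with genotype, treatment and sex of each well from the deposited sample sheet, and the wells of selected single cells were not used here. Counts were summed over sublibraries, in which 8449 barcode names recur after filtering and were taken as separate nuclei.

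Nuclei had over 300 transcripts, under 50000, over 400 genes and under 1% mitochondrial transcripts. Doublets (1252, Scrublet score above 0.25) were removed. Nuclei were clustered in scanpy 1.11.5 (2000 variable genes without the members, 30 components, 15 neighbours, leidenalg 0.10.2 at resolution 1.5, seed 1) and clusters were named from fixed markers. Free RNA was not removed.

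For each type, the counts of a well were added up where it had 10 nuclei or more, and the sums were compared by edgeR 4.0.16 in R 4.3.3 (TMM, filterByExpr, glmQLFit and glmQLFTest on all 4 groups, sex as covariate, Benjamini-Hochberg at 0.05 over all genes of a type and contrast), after tests on simulated counts. Log2 differences are these fits, CPM are counts scaled to all transcripts of the type in the well, and intervals are 95%. The well, 1 mouse, is the replicate. DESeq2 1.42.0 was an alternative.

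The members and all lists were chosen with earlier results of these data known. Members called in a neuronal type, the 3 members with the smallest p where a contrast called none, members called in glia and called genes of the further lists are named. *Insig2*, *Scap* and *Mvk* under PMX205 in astrocytes, and the receptors, *Fasn* and *Cyp46a1*, were named after their values were seen.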

Additional observations from a re-analysis of the deposited data

Results flagged for a closer look

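In 108 groups of 6 wells looked at for the named members, 7 held a well that stood apart from the other 5 by Dixon's criterion, and chance gives about 1 in 20. In all neurons these were *Sqle* in WT-veh F3 (7.54 CPM, next well 6.11) and *Nsdhl* in WT-veh F2 (13.19 CPM, next 9.67), both high within WT. In CA3 they were *Msmo1* in Arc-PMX F2 (26.28 CPM, next 37.41) and *Mvd* in Arc-PMX M2 (7.36 CPM, next 11.14), both low within Arc, and *Sc5d* in WT-PMX F1 (12.67 CPM, next 17.98) and *Fdps* in WT-PMX F3 (12.48 CPM, next 5.33). In astrocytes *Abca1* stood high in WT-PMX M1 (453.63 CPM, next 290.08), which is the well that makes the WT-PMX and Arc-PMX ranges overlap. In CA3 and all neurons each of these wells but that of *Sc5d* stood apart on the side of the other genotype.

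The genotype difference itself differed between cell types of the same wells. It differed between CA3 and dentate granule nuclei for 5 members (1.04% of all genes called) and between CA3 and CA1 for 2 (0.0781%). Between CA3 and interneurons it differed for 5 (0.119%), and between CA3 and astrocytes for 16 (11.8%). Calls are by edgeR at an adjusted p under 0.05, with the well as a block.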

How the results depend on the processing

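Under the alternatives other than leaving out 1 well, 570 values of single named members kept their direction and side of the threshold, 61 kept their direction without a call and none reversed. With 1 well left out these were 848, 76 and 0. Of the counts of called members, 565 stayed within 1.5 times and 35 did not, and no level moved by more than 1 SD without wells under 50 nuclei, a setting that leaves no WT-veh microglial well, so that the microglial levels were not checked by it. Averaged over treatments, the count of called members went from 8 to 1 in all neurons without CA3 nuclei, from 13 to 8 in CA3 within the depth window and to 2 in the smaller cluster, and from 1 in CA1 to 3 with DESeq2 (0.254% of all genes called), 3 without the filter on low counts (0.203%) and 2 with nuclei named by their highest marker score (0.0549%). It went from 0 to 1 in dentate granule nuclei with DESeq2, without the filter, with the replicate block and without WT-veh F3 and M3, with 0.952% to 2.12% of all genes called. It went from 3 to 7 of 21 tested in astrocytes without WT-veh F3 and M3 (18.5% of all genes called), from 0 to 2 of 28 in microglia without the filter (4.7%) and from 0 to 2 of 13 in oligodendrocytes by highest score (7.94%). Between Arc-veh and WT-veh, 3 in all neurons became 5 with DESeq2 (0.14% of all genes called), 7 without the filter (0.542%), 1 with the 2 groups alone (0.0139%), 1 with the block (0.0266%), 0 without CA3 nuclei (0.0138%) and 0 without WT-veh F3 and M3 (0%). In CA3 6 became 10 without the filter (0.282%), 2 in the depth window (0.139%) and 0 in the smaller cluster (0%). In astrocytes 2 became 1 with DESeq2 (12.4%) and 1 without WT-veh F3 and M3 (10.6%), in CA1 0 became 1 by highest score (0.0458%) and 1 without the filter (0.148%), and in oligodendrocytes 0 became 1 by highest score (8.7%). Between Arc-PMX and WT-PMX, 1 in all neurons became 2 with DESeq2 (0.0532%), 3 without the filter (0.174%), and 0 with the 2 groups alone, the block, no CA3 nuclei, or no WT-veh F3 and M3 (0.00645% to 0.00708%), and 7 in CA3 became 0 in the depth window (0.0116%) and 0 in the smaller cluster (0%). The settings on CA3 depth and clusters and the omission of CA3 nuclei were chosen after the data were seen, and the cause of these shifts was not tested.

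With 1 well left out, the averaged count was 12 to 14 in CA3, 7 to 9 in all neurons, 0 to 2 in CA1 (0 without Arc-veh F3, Arc-veh M2 or WT-veh M2, 2 without Arc-PMX F3 or WT-PMX M3), 3 to 5 in astrocytes (5 without Arc-PMX M1) and 0 to 1 in dentate granule nuclei (1 without Arc-PMX F3 or M2, Arc-veh F1, M1, M2 or M3, WT-PMX M1 or M3, or WT-veh F3). On water it was 4 to 7 in CA3, 1 to 4 in all neurons (1 without Arc-veh F2, F3, M1 or M2, or WT-veh F3, M1, M2 or M3) and 1 to 2 in astrocytes (1 without Arc-veh F2, F3 or M3, or WT-veh F1, M2 or M3). On PMX205 it was 6 to 9 in CA3, 0 to 1 in all neurons (0 without any of 10 of the 12 wells, all but Arc-PMX F3 and WT-PMX F3) and 2 to 4 in astrocytes (4 without Arc-PMX M1). The share of all genes called in these averaged fits was 0.131% to 0.25% in all neurons. It was 1.3% to 1.92% in dentate granule nuclei and 18.2% to 20.3% in astrocytes. On water it was 0.0131% to 0.0723% in all neurons and 10% to 12.2% in astrocytes. On PMX205 it was 0.00657% to 0.0197% and 9.26% to 11% in that order. With all wells kept, the averaged share was 0.443% in CA3 and 0.107% in CA1. Leaving out wells was not run for oligodendrocytes, OPCs and microglia.

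Wells with the same number in different groups deviated together only in part, so the numbers were not taken as pairs. Their median correlation was 0.095 over 36 pairs in CA3 and in all neurons, with 17 and 18 of them over 0.1. Over other pairs it was −0.017 and −0.014. By the well names, all WT wells lay in odd and all Arc wells in even plate columns, and water and PMX205 wells lay in different rows. Plate position and group cannot be told apart. With the replicate block all 13 members stayed called in CA3, with a median of 1.17. Depth limits the low members: *Idi1*, *Ebp* and *Stard4* could not be tested in CA3, and most members could not be tested in OPCs and microglia.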

Other observations

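A few lipid genes outside the cholesterol list were called by genotype in glia, at shares that were not above those of all genes in astrocytes, and none was called in oligodendrocytes (11 tested) or OPCs (9 tested) by edgeR, with 1 and 2 at an unadjusted p under 0.05. In microglia, 1 of 10 genes of the fatty acid arm and 4 of 14 genes of sterol sensing, turnover and traffic could be tested between Arc and WT over both treatments. *Acaca*, acetyl-CoA carboxylase, was higher in Arc by 3.82 on the log2 scale (95% interval 3.22 to 4.42, adjusted p = 7.3e-13, edgeR), and *Osbpl8*, a lipid transfer protein, by 1.42 (0.98 to 1.86, adjusted p = 2.7e-06). *Lpcat3*, a lysophospholipid acyltransferase, was lower by −0.73 (−1.27 to −0.19, adjusted p = 0.048). Of all genes tested in microglia 20.5% were called. WT wells held 262 microglial nuclei in all, and wells under 10 nuclei did not enter the fit. That left 4 WT-veh and 5 WT-PMX wells. In astrocytes 2 of 18 tested genes of both lists were called, with 19.7% of all genes called. There *Me1*, malic enzyme, was higher by 0.38 (0.14 to 0.62, adjusted p = 0.016, edgeR). *Acss2*, an acetyl-CoA synthetase, was lower by −0.43 (−0.70 to −0.16, adjusted p = 0.018, edgeR). Markers of CA1 and dentate neurons were higher in Arc in these nuclei. The part of those transcripts in these values was not tested.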
